A study of Mus musculus with 36 samples.

Results

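The MAP kinase phosphatases described here were 6 genes, Dusp1, Dusp4, Dusp5, Dusp6, Dusp7 and Dusp9, out of 49671 genes in the count table. They were chosen by name as members of the family and matched from Ensembl identifiers to symbols. All 6 were among the 17702 genes that passed the filter on low counts. The cells were mouse embryonic stem cells (mESCs) of wild-type genotype, given as strain 129m, and the same genotype was used in all 36 libraries. The substrates were StemBond hydrogels of soft or stiff polyacrylamide, to which matrix protein is tethered, and tissue culture plastic. On each hydrogel, cells in serum + LIF were taken at 24 h and at 48 h, and cells in serum alone, in serum + PD03 or with both additives (serum + LIF + PD03) at 48 h. Plastic was represented by serum + LIF at 48 h. A group comprised 3 libraries, except for 6 in soft serum + PD03. LIF is a cytokine that acts through STAT3 to hold cells in self-renewal, and PD03 is an inhibitor of MEK, the kinase that activates ERK. The medium was serum in every group, so no group was free of serum, and PD03 was tested at 48 h on hydrogels alone.

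MAP kinase phosphatases are dual specificity enzymes that remove the phosphates from both the threonine and the tyrosine of the activation loop of MAP kinases and so switch them off. Several are themselves induced by the kinase they inactivate, which makes them negative feedback regulators, and their transcripts are used as a readout of ERK activity. Dusp6, Dusp7 and Dusp9 encode cytoplasmic enzymes with a preference for ERK, Dusp5 encodes a nuclear enzyme selective for ERK, and Dusp1 and Dusp4 encode nuclear enzymes that act on ERK, JNK and p38. In mESCs, ERK signalling downstream of FGF4 drives exit from the naive state, and inhibition of MEK is part of media that hold cells in that state.

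Levels are given in CPM (the count of a gene scaled to a common library total), computed with TMM-scaled library sizes. Total counts ranged from 10405696 to 26635239 per library, and the lowest count of any of the 6 genes in a library was 54, for Dusp4 with PD03. In the groups without PD03, Spry4 and Etv4, which are ERK-induced genes, had group means of 110 to 137 CPM and 75.2 to 94.7 CPM. With PD03 they were at 0.573 to 1.17 CPM and 1.19 to 2.08 CPM. The summed level of 6 embryonic stem cell markers was between 2630 and 4442 CPM in every library, and all 6 were detected. Each description in the sample labels opens with 1 of 3 identifiers, whose meaning the labels do not give. The 24 h and plastic libraries carried the first, the stiff 48 h libraries the second except for 1 of 3 in serum + LIF (the first), and the soft 48 h libraries the third except for 2 of 6 in serum + PD03 (the second). Soft and stiff hydrogels therefore shared an identifier at 24 h, while at 48 h the identifier and the substrate cannot be told apart in nearly all libraries.

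Sequences upstream of the start site were available for 4 of the 6 genes and are shown as description. Whether these sequences bear on the levels of the genes was not tested. They are reference sequences of RefSeq on build GRCm38.p6, written 5′ to 3′ on the strand of the gene, and end before the most upstream transcript start annotated there by GENCODE M21. Capitals mark motif matches. Dusp1 is at chr17:26508520-26508722 on the minus strand, Dusp5 at chr19:53528895-53529108, Dusp6 at chr10:99262981-99263230 and Dusp7 at chr9:106368382-106368631, all 3 on the plus strand.
Dusp1: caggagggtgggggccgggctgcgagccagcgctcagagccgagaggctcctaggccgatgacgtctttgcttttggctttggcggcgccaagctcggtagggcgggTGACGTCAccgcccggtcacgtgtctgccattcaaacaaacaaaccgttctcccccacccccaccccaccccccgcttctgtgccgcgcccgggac
Dusp5: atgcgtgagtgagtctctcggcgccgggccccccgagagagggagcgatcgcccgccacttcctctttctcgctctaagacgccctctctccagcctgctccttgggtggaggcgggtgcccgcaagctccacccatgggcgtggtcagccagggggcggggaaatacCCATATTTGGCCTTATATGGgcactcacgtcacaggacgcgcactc
Dusp6: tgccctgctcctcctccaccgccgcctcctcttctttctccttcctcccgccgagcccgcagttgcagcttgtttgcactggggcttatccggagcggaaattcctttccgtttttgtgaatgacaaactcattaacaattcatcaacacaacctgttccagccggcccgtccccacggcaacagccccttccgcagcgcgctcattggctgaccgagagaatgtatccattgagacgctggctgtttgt
Dusp7: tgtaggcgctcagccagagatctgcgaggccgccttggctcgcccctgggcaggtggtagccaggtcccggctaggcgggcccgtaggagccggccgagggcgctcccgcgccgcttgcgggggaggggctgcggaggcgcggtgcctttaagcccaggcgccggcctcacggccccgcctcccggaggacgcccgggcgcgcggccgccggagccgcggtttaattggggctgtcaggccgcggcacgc
The window from 250 bases before to 50 bases after the start site was searched on both strands for the cAMP response element TGACGTCA, the AP-1 motif TGANTCA, the ETS motif CCGGAA and the CArG box bound by SRF. The matches did not overlap each other. Dusp1 held 1 cAMP response element, at positions -143 to -136 relative to the start site, a motif found in 1.79% of 32851 promoters of this length. Dusp5 held 2 adjacent CArG boxes, at -82 to -73 and -72 to -63, and a CArG box was found in 1.63% of promoters. None of the 4 motifs was present in the windows of Dusp6 and Dusp7. The AP-1 letters were in 7.81% and the ETS letters in 14.9% of all promoters, and in none of these 4. No promoter sequence is shown for Dusp4 and Dusp9.

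Each gene had its own order of groups. Dusp1, Dusp4, Dusp5 and Dusp6 had their highest mean on stiff hydrogels at 24 h, at 50.9 ± 0.937, 47.8 ± 5.39, 36.2 ± 2.35 and 89.2 ± 8.47 CPM (SD, n = 3). Dusp7 and Dusp9 had it on stiff hydrogels in serum at 48 h, at 32.6 ± 1.23 and 172 ± 18.4 CPM. Among the groups without PD03 the highest mean was 1.98 times the lowest for Dusp4, 1.86 times for Dusp5 and 1.78 times for Dusp1, and 1.19 to 1.27 times for Dusp6, Dusp7 and Dusp9. Of the 10 pairs of neighbouring groups in each order, the libraries overlapped in 7 to 9. For Dusp1 alone, groups with and without PD03 were intermixed in this order.

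**Figure D1:**
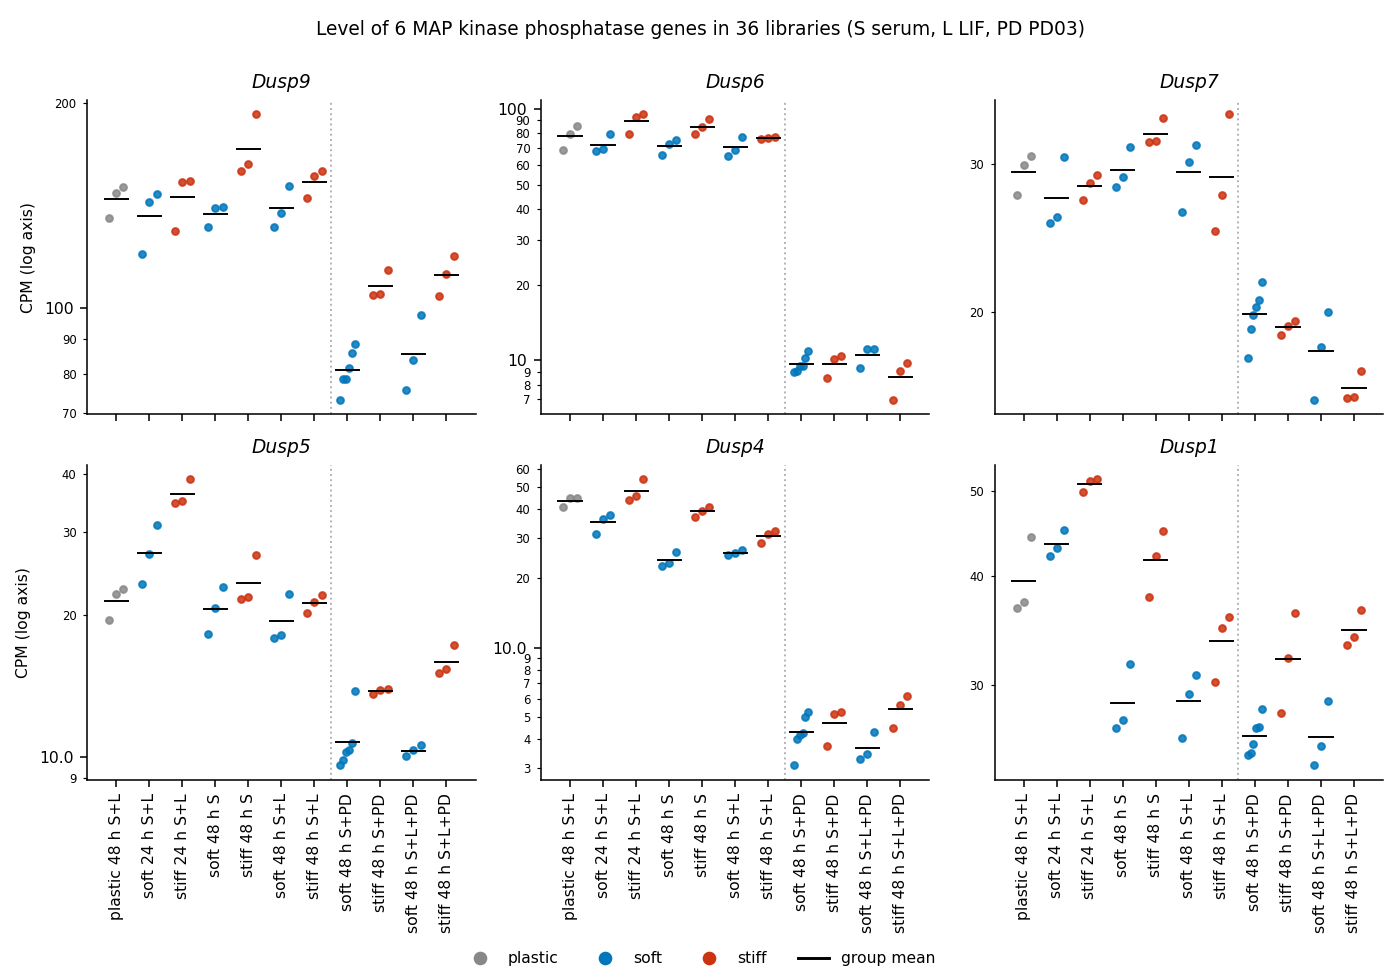
Each point is the level in CPM of a gene in 1 library, on a log axis, for the 11 groups with soft, stiff and plastic substrates in separate colours, and black lines give group means (S serum, L LIF, PD PD03). The dotted line separates the 7 groups without PD03 from the 4 with it, and no point of Dusp4, Dusp5, Dusp6, Dusp7 or Dusp9 on its right is as high as any on its left.

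To compare levels between genes, CPM were divided by the annotated exon length in kb. Dusp9, which inactivates ERK in the cytoplasm, had the highest level per kb of the 6 genes in every group, at 50.2 to 63.0 CPM per kb without PD03 and 29.8 to 41.1 with it. It contributed 38.8% to 47.4% of the summed level per kb without PD03 and 56.5% to 60.8% with PD03. Dusp6 was second in every group without PD03, at 22.5 to 28.5 CPM per kb. It was next to last in every group with PD03, at 2.74 to 3.36 CPM per kb. Without PD03 the other 4 genes lay together between 7.85 and 17.4 CPM per kb, and their order changed from group to group. With PD03, Dusp1 was second at 7.90 to 10.5 CPM per kb and Dusp4 was last at 1.34 to 1.98. The sum of the 6 genes was lowest on soft hydrogels in serum + PD03, at 52.6 ± 2.39 CPM per kb (SD, n = 6), and highest on stiff hydrogels at 24 h, at 138 ± 9.27 (SD, n = 3).

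**Figure D2:**
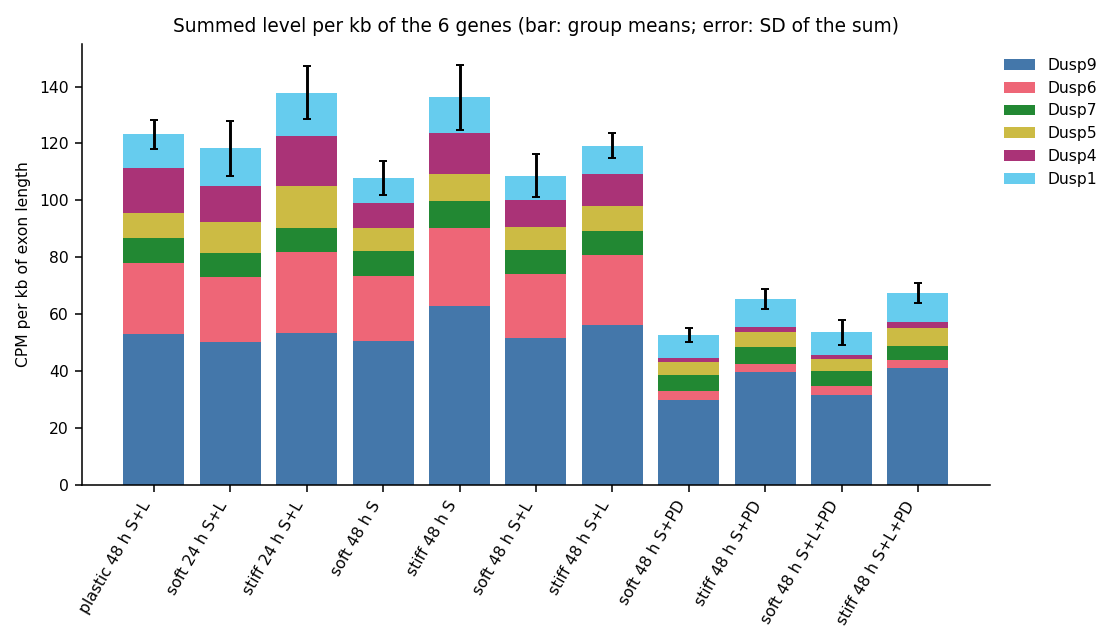
Stacked bars give the group means of CPM per kb of exon length for the 6 genes in each of the 11 groups, and error bars give the SD of their sum over the libraries of a group. The sum lies at 108 to 138 CPM per kb in the groups without PD03 and at 52.6 to 67.6 with PD03, and the Dusp9 segment is the largest in every bar.

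The comparison of cells with and without PD03 asks how these genes respond when ERK activation is blocked. Over the 4 pairs of groups that differ only in PD03, 5, 6, 5 and 5 of the 6 genes were lower with PD03 in soft serum, stiff serum, soft serum + LIF and stiff serum + LIF (edgeR quasi-likelihood test, adjusted p below 0.05), and none was higher. Among all 17702 genes, 28.5%, 27.4%, 26.6% and 27.8% were lower in these comparisons. The median log2 change of the 6 genes was -0.85, -0.76, -0.81 and -0.65, and that of all genes was between -0.01 and 0.01. Each group without PD03 was used in other comparisons as well, so that the comparisons are not independent of those below. As these are bulk samples, fewer cells expressing a gene and less RNA per cell cannot be told apart. The labels do not say that libraries came from separate cultures, and the p-values then measure only the spread between these samples, which may be technical.

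Dusp6, the cytoplasmic ERK phosphatase, had the largest decrease on stiff hydrogels and on soft hydrogels in serum. On soft hydrogels in serum the 3 libraries were at 65.6, 72.8 and 75.4 CPM, and with PD03 the 6 libraries ranged from 8.96 over a median of 9.48 to 10.9 CPM. On stiff hydrogels in serum the libraries were at 79.4, 84.4 and 90.9 CPM, and with PD03 at 8.55, 10.1 and 10.4. No library with PD03 came near the range without it. The log2 change was -2.87 ± 0.083 (SE, adjusted p = 3.98e-34) on soft and -3.14 ± 0.104 (adjusted p = 1.46e-31) on stiff hydrogels in serum. With LIF it was -2.74 ± 0.101 on soft and -3.15 ± 0.102 on stiff hydrogels, so that the 4 decreases lay between 6.67-fold and 8.85-fold.

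Dusp4, the nuclear phosphatase of ERK, JNK and p38, decreased to a like extent. In serum it was at 22.6, 23.4 and 26.2 CPM on soft and at 36.9, 39.4 and 41.1 CPM on stiff hydrogels. With PD03 the soft libraries ranged from 3.07 over 4.21 to 5.23 CPM (lowest, median and highest of 6), and the stiff ones were at 3.73, 5.12 and 5.24. All of these lay far below the libraries without PD03. The log2 changes were -2.52 ± 0.108 on soft and -3.03 ± 0.129 on stiff hydrogels in serum, and -2.82 ± 0.138 and -2.49 ± 0.121 in serum + LIF, a decrease of 5.63-fold to 8.19-fold (SE, largest adjusted p = 2.23e-24).

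The other ERK phosphatases fell by less. Dusp9 was at 132, 140.3 and 141 CPM on soft hydrogels in serum and ranged from 73.2 over 80.1 to 88.4 CPM with PD03. On stiff hydrogels it went from 159, 163 and 193 CPM to 104, 105 and 114. The groups did not overlap on either substrate, and the 4 decreases were 1.37-fold to 1.70-fold. Dusp7 decreased 1.48-fold to 1.80-fold, for example from 31.8, 31.9 and 33.97 CPM to 18.8, 19.3 and 19.5 CPM on stiff hydrogels in serum (log2 change -0.76 ± 0.092, SE, adjusted p = 6.16e-10). Dusp5, the nuclear ERK phosphatase, decreased 1.34-fold to 1.91-fold. On stiff hydrogels in serum + LIF its libraries were at 20.2, 21.3 and 22.1 CPM without PD03 and at 15.04, 15.4 and 17.3 CPM with it, the smallest of its 4 changes (-0.42 ± 0.108, SE, adjusted p = 0.000861). For Dusp4, Dusp5, Dusp6, Dusp7 and Dusp9, every one of the 15 libraries with PD03 lay below every one of the 21 libraries without it, whatever the substrate, LIF or time. That held for 10% of all genes. The margin was small for Dusp9, at 119.1 CPM in the highest library with PD03 and 119.9 in the lowest without, and for Dusp5, at 17.3 and 17.9.

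Dusp1, which acts on p38 and JNK as well as ERK, was lower with PD03 in 1 of the 4 comparisons. On stiff hydrogels in serum the libraries went from 37.8, 42.2 and 44.997 CPM to 27.9, 32.2 and 36.3 CPM, without overlap (log2 change -0.38 ± 0.083, SE, adjusted p = 0.00012). On soft hydrogels the log2 change was -0.12 in serum and -0.13 in serum + LIF, with 95% intervals of -0.27 to 0.03 and -0.31 to 0.04. On stiff hydrogels in serum + LIF it was 0.04 (-0.13 to 0.21). The intervals of these 3 comparisons do not reach the smallest estimate of any other member, which was -0.42 for Dusp5 on stiff hydrogels in serum + LIF. That estimate has its own 95% interval of -0.63 to -0.20. It overlaps the intervals of Dusp1 on soft hydrogels, but not that of Dusp1 in the same pair of groups. A difference between the genes was not tested.

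**Figure D3:**
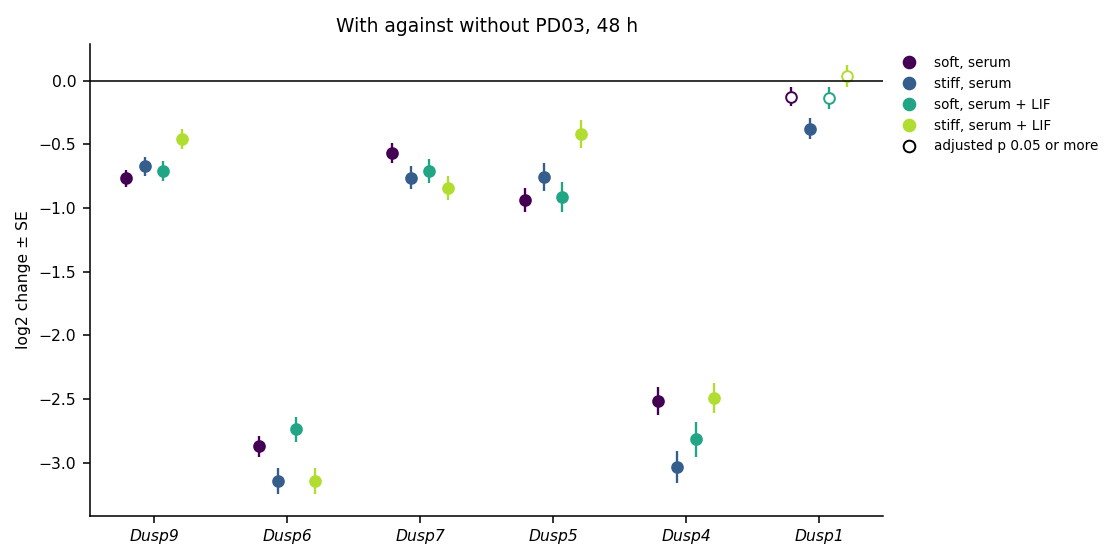
Points give the log2 change with against without PD03 at 48 h for each gene on soft and stiff hydrogels in serum and serum + LIF, with the SE of the edgeR fit as bars. Open points had an adjusted p of 0.05 or more, which applies to Dusp1 in 3 of 4 comparisons, and Dusp4 and Dusp6 sit at -2.49 or below in all 4.

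Other genes of the pathway were read beside them from lists of known members. Of 4 other MAP kinase phosphatases, 3 rose with PD03 in each of the 4 comparisons. Genes that rose made up 29%, 28.4%, 27.8% and 28.3% of all genes in soft serum, stiff serum, soft serum + LIF and stiff serum + LIF. Dusp16, a phosphatase of JNK and p38, went from 22.5 to 112 CPM on soft hydrogels in serum (log2 change 2.31 ± 0.058, SE) and from 20.01 to 109.7 CPM on stiff ones (2.46 ± 0.067). Dusp10, which also acts on JNK and p38, rose by 0.77 to 0.93 on the log2 scale. Dusp8, whose mean over all libraries was under 5 CPM, rose by 2.28 to 3.16. Dusp2, a nuclear phosphatase with a mean of 0.448 CPM, was lower in both stiff comparisons (-2.05 ± 0.594 in serum and -2.17 ± 0.606 in serum + LIF). All 6 Sprouty and Spred genes, inhibitors of receptor signalling to RAS and RAF, fell in each of the 4 comparisons, among them Spred1 from 105 to 11.5 CPM on soft hydrogels in serum. Of 19 genes of the RAS to ERK cascade, 5 to 7 fell and 9 rose, with median changes between -0.003 and 0.06 on the log2 scale. Of 11 genes of the JNK and p38 cascades 4 fell and 2 rose, of 13 ERK-induced transcription factors 8 or 9 fell and 1 rose, of 8 FGF ligands and receptors 2 to 4 fell and 2 or 3 rose, and of 10 tested atypical dual specificity phosphatases 1 or 2 fell and 3 or 4 rose.

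The substrate comparison asks whether cells on soft hydrogels differ from cells on stiff ones. Averaged over the 3 pairs of groups without PD03, 5 of the 6 genes were lower on soft hydrogels, against 4.8% of all genes that were lower and 3.9% that were higher. Averaged over the 2 pairs with PD03, 4 of 6 were lower, against 7.7% of all genes that were lower and 7.1% that were higher. Without PD03 the mean log2 change was -0.46 ± 0.056 for Dusp4 (SE, edgeR adjusted p = 1.28e-08), -0.34 ± 0.048 for Dusp1 (8.52e-07), -0.24 ± 0.060 for Dusp5 (0.00502), -0.23 ± 0.046 for Dusp6 (0.000349) and -0.18 ± 0.044 for Dusp9 (0.00387). Over the 2 pairs at 48 h alone, Dusp1, Dusp4, Dusp6 and Dusp9 passed (5.39% of all genes in either direction), and Dusp5 did not (-0.15, adjusted p = 0.295). With PD03 it was -0.49 ± 0.077 for Dusp5 (adjusted p = 3.26e-06), -0.40 ± 0.052 for Dusp9 (5.37e-08), -0.37 ± 0.104 for Dusp4 (0.0091) and -0.35 ± 0.056 for Dusp1 (5.52e-06). The median over the 6 genes was -0.23 without and -0.36 with PD03, and that over all genes was within 0.01 of 0. Dusp7 was at -0.06 without PD03 (95% interval -0.16 to 0.05) and 0.10 with it (-0.03 to 0.23), and passed in neither mean. Changes of its mean level within these limits are not excluded.

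The identifier that opens the sample descriptions moves with the substrate at 48 h, and the columns of the table do not say which library carried which identifier in the 2 mixed groups. The third identifier met the second within a group only in soft serum + PD03 (4 and 2 libraries). The second met the first only in stiff serum + LIF at 48 h (2 and 1). The term is estimated from these groups alone and carried over to the other media. There the fits cannot separate the identifier from the substrate, whether a call is kept or lost. Over the 45 assignments that the labels allow, a fit with the identifier as a term kept the sign of every one of the 9 mean decreases above. Some of these became very small at their weakest, namely -0.033 for Dusp4 with PD03. Without PD03 the weakest were -0.045 for Dusp5, -0.067 for Dusp9 and -0.099 for Dusp6. Without PD03, the call was kept in 41 of 45 fits for Dusp1, 24 for Dusp4, 7 for Dusp9, 1 for Dusp5 and 0 for Dusp6. With PD03 it was kept in 42 for Dusp9, 31 for Dusp1, 30 for Dusp5 and 9 for Dusp4. The Dusp4 call with PD03 was also lost without the second stiff library in serum + PD03 (log2 change -0.32, adjusted p = 0.0584). The log2 change of Dusp4 without PD03 ranged from -0.73 to -0.19 over these fits, and that of Dusp1 from -0.43 to -0.25. The 24 h comparison lies within 1 identifier, so that this term cannot bear on it. Within single media at 48 h, the calls in serum were kept in 40 fits for Dusp1, 21 for Dusp4 and 9 for Dusp9. In serum + PD03 they were kept in 42 for Dusp9 and 8 each for Dusp1 and Dusp5, and in serum + LIF + PD03 in 30 for Dusp5, 18 for Dusp9, 14 for Dusp1 and 9 for Dusp4.

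**Figure D4:**
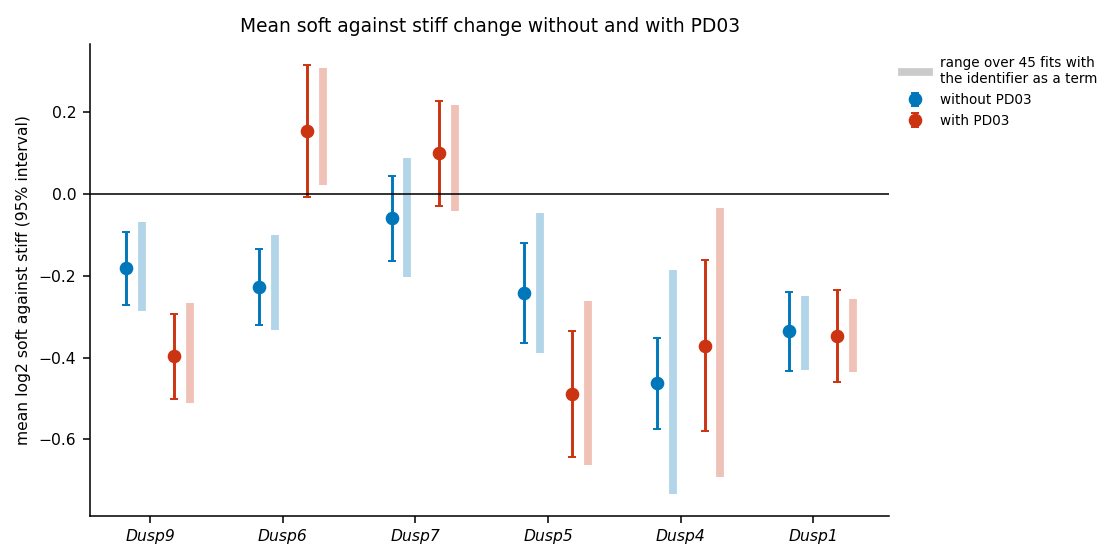
Points give the mean log2 change of soft against stiff hydrogels for each gene without PD03 (3 pairs of groups, 1 of them at 24 h) and with PD03 (2 pairs), with 95% intervals as bars, and the pale bars give the range over 45 fits with the identifier as a term. Dusp1, Dusp4, Dusp5 and Dusp9 lie below 0 in both, and Dusp6 lies below 0 without PD03 and at 0.15 with it.

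The difference between the 2 means was called for Dusp6 alone of the 6 genes, against 2.49% of all genes in either direction, but this test mixes time with PD03. The mean soft against stiff change of Dusp6 was -0.23 without PD03 and 0.15 ± 0.080 with PD03 (SE, adjusted p = 0.215), a difference of 0.38 ± 0.092 (edgeR adjusted p = 0.0119). The mean without PD03 includes the 24 h pair, at -0.31, whereas every pair with PD03 was at 48 h. With the 2 pairs at 48 h alone, the difference was 0.34 and did not pass (adjusted p = 0.0577). The tests within serum (0.27, adjusted p = 0.422) and within serum + LIF (0.41, 0.222) did not pass either, and with PD03 the change was 0.02 in serum and 0.29 in serum + LIF. A substrate effect on Dusp6 that differs with PD03 is therefore not shown at matched time. The call of the full test was kept in all 45 fits with the identifier, at 0.35 to 0.41. It was lost without any of 3 libraries, namely the first on stiff hydrogels in serum + LIF + PD03 (difference 0.31, adjusted p = 0.0799), the second on stiff hydrogels in serum + PD03 (0.33, 0.0559) and the second on soft hydrogels in serum + LIF + PD03 (0.35, 0.0513). At 48 h without PD03 the soft libraries ranged from 64.7 to 77.5 CPM and the stiff libraries from 75.6 to 90.9. With PD03 the soft libraries ranged from 8.96 to 11.1 CPM and the stiff libraries from 6.95 to 10.4. Spry1 and Spry2, 2 of the 6 Sprouty and Spred genes, were called in the full test, which mixes time with PD03, at 0.51 ± 0.115 and 0.38 ± 0.064 (SE, adjusted p = 0.00597 and 0.000141). For Dusp9 the difference was -0.22 ± 0.068 (adjusted p = 0.0789), that is, more negative with PD03, and passed with no filter on low counts (0.00296) or without any of 4 libraries (0.0155 to 0.0439), while over the 48 h pairs it was -0.17 (0.289). For Dusp5 it was -0.25 ± 0.098 (0.191). The difference for Dusp1 was -0.01, with a 95% interval of -0.16 to 0.14, and for Dusp4 0.09 (-0.14 to 0.33).

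Within single media the number of genes lower on soft hydrogels was 3 of 6 at 24 h in serum + LIF (2.52% of all genes were lower), 3 at 48 h without additives (2.77%), 0 with LIF (0.333%), 3 with PD03 (3.42%) and 4 with LIF and PD03 combined (4.82%). None was higher on soft hydrogels. In serum + LIF at 48 h, where edgeR called none, 2 of the 6 had an unadjusted p under 0.05 and DESeq2 called 0. The stiff libraries of that group included the 1 that carried the identifier of the 24 h libraries. Dusp1, Dusp4, Dusp5 and Dusp9 had a lower mean on soft hydrogels in 5 of 5 comparisons, Dusp6 in 3 and Dusp7 in 2.

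Dusp4 had the largest estimated decrease on soft hydrogels of any member in the 3 comparisons without PD03. Its lead was within the SE over Dusp5 at 24 h (-0.42) and over Dusp1 in serum + LIF at 48 h (-0.23). At 24 h Dusp4 was at 31.1, 36.2 and 37.8 CPM on soft and at 43.9, 45.5 and 54.0 CPM on stiff hydrogels, without overlap (log2 change -0.45 ± 0.094, SE, edgeR adjusted p = 0.0012). In serum at 48 h the soft libraries, at 22.6 to 26.2 CPM, all lay below the stiff ones at 36.9 to 41.1 (-0.70 ± 0.096, adjusted p = 8.88e-07). In serum + LIF at 48 h the 3 soft libraries, at 25.3, 25.8 and 26.5 CPM, again lay below the stiff ones at 28.4, 31.1 and 32.2, but the change of -0.24 did not pass the test (adjusted p = 0.333). With PD03, the libraries overlapped in serum + PD03, where the change of -0.18 did not pass (adjusted p = 0.559). Dusp4 was called in serum + LIF + PD03 (-0.56 ± 0.155, adjusted p = 0.0131), where soft libraries were at 3.29, 3.43 and 4.27 CPM and stiff ones at 4.47, 5.63 and 6.16. Leaving out any of 4 of these 6 libraries (the first or the third stiff, the second or the third soft) raised that adjusted p to between 0.0618 and 0.0997, with changes of -0.48 to -0.53.

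Dusp1, like Dusp4, had its largest decreases in serum at 48 h and in serum + LIF + PD03. Unlike Dusp4, it was called in serum + PD03 and not at 24 h. In serum at 48 h it was at 26.7, 27.3 and 31.7 CPM on soft and at 37.8, 42.2 and 44.997 CPM on stiff hydrogels (log2 change -0.55 ± 0.083, SE, edgeR adjusted p = 7.5e-06). In serum + LIF + PD03 it was at 24.2, 25.5 and 28.7 against 33.3, 34.03 and 36.5 CPM (-0.40 ± 0.084, adjusted p = 0.000693), again without overlap. In serum + PD03 the 6 soft libraries ranged from 24.9 to 28.2 CPM and overlapped the lowest of the stiff ones, at 27.9 CPM (-0.29 ± 0.075, adjusted p = 0.00899). Without the first stiff library of that comparison the change was -0.21 (adjusted p = 0.216). At 24 h all 3 soft libraries, at 42.2 to 45.1 CPM, lay below the stiff ones at 49.8 to 51.5, and the change of -0.23 did not pass the test (adjusted p = 0.108). The annotated gene Dusp1 (chr17:26505590-26562128, minus strand, GENCODE M21) includes a long transcript that overlaps the start of Ergic1 on the other strand, whose group means were 70.9 to 113 CPM. The strand setting of the counting is not stated, so reads of these genes cannot be told apart where they overlap.

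Dusp5 was lower on soft hydrogels at 24 h, at 23.3, 26.9 and 31.1 CPM against 34.7, 34.9 and 38.9 (log2 change -0.42 ± 0.101, SE, edgeR adjusted p = 0.00665). Without the third stiff library of that comparison the change was -0.36 (adjusted p = 0.074), and without the third soft library -0.31 (0.142). In serum + LIF + PD03 it was at 10.03, 10.3 and 10.6 against 15.04, 15.4 and 17.3 CPM (-0.62 ± 0.115, adjusted p = 0.00011), a call kept without any 1 library. In serum + PD03 5 of the 6 soft libraries, at 9.59 to 10.7 CPM, lay below the stiff ones at 13.6, 13.9 and 13.97, and the sixth was at 13.8 (-0.36 ± 0.102, adjusted p = 0.0257). That call was lost when any of the 3 stiff libraries or the third soft library was left out (adjusted p = 0.0593 to 0.108, log2 change -0.33 to -0.37).

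Dusp9 had its largest changes between substrates in the presence of PD03. A difference of the substrate effect with against without PD03 did not pass in serum (edgeR adjusted p = 0.799) or in serum + LIF (0.404). In serum + PD03 all 6 soft libraries, at 73.2 to 88.4 CPM, lay below the 3 stiff ones at 104, 105 and 114 (log2 change -0.41 ± 0.068, SE, edgeR adjusted p = 2.38e-05). In serum + LIF + PD03 it was at 75.7, 83.8 and 97.6 against 104, 112 and 119 CPM (-0.38 ± 0.078, adjusted p = 0.000495). In serum it was also lower on soft hydrogels, at 132 to 141 against 159 to 193 CPM (-0.32 ± 0.076, adjusted p = 0.00531). Without the second stiff library of that comparison, at 193 CPM, the change was -0.22 (adjusted p = 0.15), and without the first soft library -0.28 (0.0552).

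Dusp6 passed the test between substrates only at 24 h, at 68.1, 69.2 and 79.1 CPM on soft and 79.5, 92.8 and 95.3 CPM on stiff hydrogels (log2 change -0.31 ± 0.079, SE, edgeR adjusted p = 0.0126). Leaving out the second or the third library of either substrate took the adjusted p to between 0.0986 and 0.134 and the change to between -0.28 and -0.26. In serum at 48 h its change of -0.25 ± 0.078 had an adjusted p of 0.0523. It passed with RLE scaling in place of TMM (0.0462), with no filter (0.0053) and in the fit on the compared groups alone (0.0321). It also passed without the first stiff library (-0.31, 0.0417). Dusp7 passed in none of the 5 comparisons, with changes between -0.14 and 0.15.

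**Figure D5:**
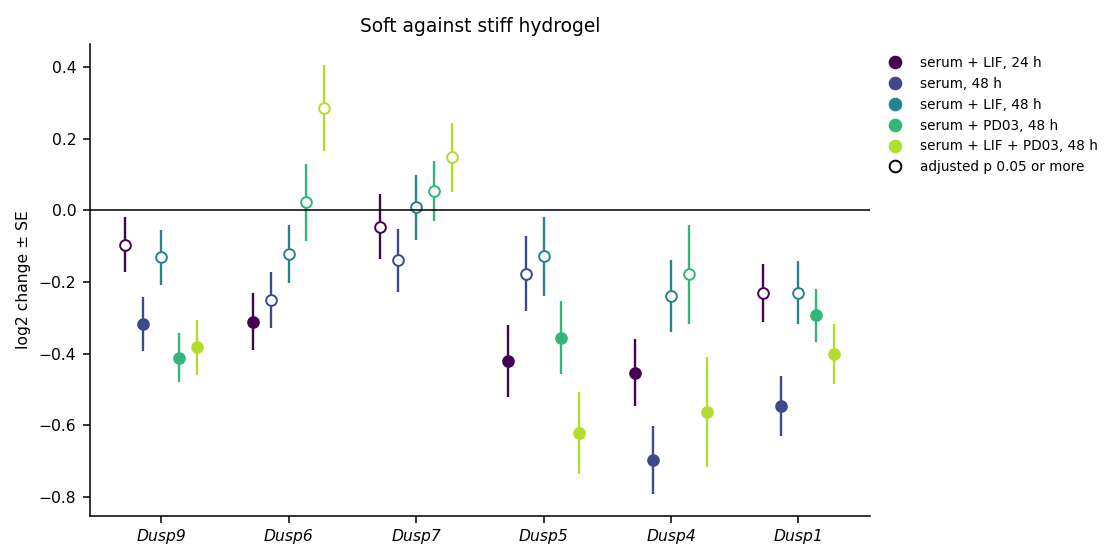
Points give the log2 change of soft against stiff hydrogels for each gene in the 5 pairs of groups, with the SE of the edgeR fit as bars, and open points had an adjusted p of 0.05 or more. Dusp7 has open points alone, and Dusp6 has 1 filled point, at -0.31 for 24 h.

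Markers of several cell types moved with the substrate. The summed level of 6 fibroblast genes was higher on stiff than on soft hydrogels in each of the 5 pairs without overlap of the libraries, at 31.7 to 90.5 CPM on stiff and 21.8 to 41.2 CPM on soft hydrogels over all pairs. Of the 5 that passed the filter, 2 were lower on soft hydrogels without PD03 and 4 with PD03 in the mean comparisons, none of the 6 was at 0 in all libraries, and Col1a1 was the most abundant at 35.1 CPM. The summed embryonic stem cell markers were higher on soft hydrogels in each pair, again without overlap. Neurectoderm markers (4 genes) were higher on soft hydrogels in every pair on average and without overlap in 4 of 5, the exception being serum + PD03. With PD03, primitive endoderm markers were lower on soft hydrogels without overlap, at 82.2 to 104 against 117 to 126 CPM in serum and 100.3 to 112 against 129.8 to 139.5 CPM in serum + LIF. Trophoblast markers were so too, at 108 to 121 against 122 to 129 CPM and 121 to 126 against 144 to 154 CPM. Without PD03, trophoblast markers were higher on soft hydrogels, at 50.6 to 53.7 against 47.97 to 50.3 CPM at 24 h. In serum at 48 h they were at 44.2 to 52.1 against 34.998 to 42.7 CPM. In serum + LIF at 48 h their libraries overlapped. Primitive endoderm means were 49.6 against 55.9 CPM at 24 h, but 61.4 against 55.2 in serum + LIF at 48 h. Mesoderm means were 12.4 against 16.3 CPM at 24 h, but 17.7 against 14.8 in serum at 48 h. Between media, with PD03 the summed levels of 6 primitive endoderm and 4 trophoblast markers were at 82.2 to 139.5 CPM and 108 to 154 CPM, against 45.02 to 68.5 CPM and 34.998 to 56.7 CPM without it. Those of 4 neurectoderm and 4 mesoderm markers were at 12.4 to 17.5 CPM and 3.69 to 5.29 CPM with PD03, against 33.4 to 57.4 CPM and 10.5 to 19.99 CPM without it. The summed embryonic stem cell markers were also higher with PD03, at 3815 to 4442 CPM against 2630 to 3239 CPM without it. The most abundant genes of the primitive endoderm and trophoblast lists were Dab2 and Tfap2c, with means of 52.2 and 69.5 CPM over all libraries. No gene of these lists was at 0 in every library. Whether cells of these types were present, or had a part in the levels of the 6 genes, was not tested.

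Of the other MAP kinase phosphatases, Dusp10 was lower on soft hydrogels without PD03 (mean log2 change -0.30 ± 0.091, SE, edgeR adjusted p = 0.0257) and with it (-0.37 ± 0.092, 0.00296). Dusp16 was higher on soft hydrogels without PD03 (0.21 ± 0.043, 0.000356). Dusp8, with a mean under 5 CPM, was lower with PD03 (-0.86 ± 0.133, 2.42e-06). Among the 19 genes of the RAS to ERK cascade 1 was lower and 1 higher without PD03, and 3 were lower and 1 higher with it. None of the 11 genes of the JNK and p38 cascades passed in either mean. Of the 6 Sprouty and Spred genes, 2 were lower without PD03 (median log2 change -0.09) while 4 were higher with it (median 0.25), where the called members were lower. Of the 13 ERK-induced transcription factors, 2 were lower without PD03, and 1 was lower and 2 higher with it. Of the 8 FGF ligands and receptors, 1 was lower without PD03, and 1 was lower and 1 higher with it, and of the 10 atypical dual specificity phosphatases 2 were lower in either mean.

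The comparison with plastic asks how either hydrogel relates to standard culture. On soft hydrogels in serum + LIF at 48 h, 2 of the 6 genes were lower than on plastic (6.47% of all genes were lower), and on stiff hydrogels 1 was (3.59%). The 2 comparisons share the plastic libraries, and plastic carried another identifier than most hydrogel libraries at 48 h. Dusp4 was at 40.8, 44.6 and 44.8 CPM on plastic, above every library of either hydrogel in that medium at 48 h (log2 change -0.75 ± 0.097 on soft, adjusted p = 7.34e-08, and -0.51 ± 0.096 on stiff, 0.000227, SE, edgeR). Dusp1 was at 36.7, 37.3 and 44.2 CPM on plastic against 26.1 to 30.7 CPM on soft hydrogels (-0.46 ± 0.086, adjusted p = 0.000108). On stiff hydrogels the change of Dusp1 was -0.23 and did not pass (adjusted p = 0.119). For Dusp5, Dusp6, Dusp7 and Dusp9 the changes against plastic were between -0.14 and 0.08. With the identifier as a term, Dusp4 was called in 13 of 45 fits on soft and 17 on stiff hydrogels, and Dusp1 in 11 on soft.

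The comparison of 48 h with 24 h in serum + LIF gave lower levels at 48 h for 3 of 6 genes on soft hydrogels (11.4% of all genes were lower) and 4 on stiff ones (13%). Dusp5 went from 34.7, 34.9 and 38.9 to 20.2, 21.3 and 22.1 CPM on stiff hydrogels (log2 change -0.77 ± 0.102, SE, edgeR adjusted p = 5.82e-08) and Dusp1 from 49.8 to 51.5 CPM to between 30.2 and 35.8 (-0.60 ± 0.082, 1.3e-07). Dusp4 changed by -0.64 on stiff and -0.43 on soft hydrogels, Dusp5 by -0.48 and Dusp1 by -0.59 on soft hydrogels. Dusp6 changed by -0.22 on stiff hydrogels (adjusted p = 0.0309), a call lost in DESeq2 (0.0683) and when any of 5 of the 6 libraries, all but the first at 24 h, was left out (0.0748 to 0.174). Dusp7 and Dusp9 had changes of 0.04 to 0.10. Time moved with the identifier. On stiff hydrogels the calls of Dusp1, Dusp4 and Dusp5 were kept in all 45 fits with the identifier, and on soft hydrogels in 16 for Dusp1, 3 for Dusp4 and 0 for Dusp5. Only 1 stiff library at 48 h shared the identifier of the 24 h libraries, and its column is not known. The time change within an identifier on stiff hydrogels therefore rests on that library. On soft hydrogels the change of Dusp4 ranged from -0.96 to 0.08 over these fits.

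The changes with LIF of the 6 genes lay between -0.35 (Dusp4) and 0.20 (Dusp5) on the log2 scale. Without PD03 on soft hydrogels 0 of 6 were lower (0% of all genes), on stiff hydrogels 2 (0.695%), and with PD03 0 on soft (0.0678%) and 0 on stiff hydrogels (0.22%). By unadjusted p under 0.05 edgeR had 0, 3, 0 and 1 of 6 in these comparisons, and DESeq2 called 0, 2, 0 and 0. The 2 were Dusp4, from 36.9, 39.4 and 41.1 to 28.4, 31.1 and 32.2 CPM with LIF (log2 change -0.35 ± 0.096, SE, adjusted p = 0.0458), and Dusp1 (-0.31 ± 0.084, 0.0447). Both calls were lost in all 45 fits with the identifier. Dusp1 lost its call without 4 of the 6 libraries (adjusted p up to 0.296) and Dusp4 without 5 of them (up to 0.198).

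In the direct tests of interaction, the substrate effect did not pass for any of the 6 genes when it was compared with against without PD03 in serum (0.797% of all genes passed in either direction) or in serum + LIF (1.07%), with against without LIF in the absence of PD03 (0.0847%), or at 48 h against 24 h (0.254%). By unadjusted p under 0.05 edgeR had 3, 3, 2 and 0 of the 6 genes in these tests, and DESeq2 called 0 in each. The smallest adjusted p-values were those of Dusp4 for PD03 in serum, at 0.52 ± 0.168 (SE, adjusted p = 0.146), and of Dusp5 for PD03 in serum + LIF, at -0.49 ± 0.158 (0.151). A difference between media in the calls above is therefore not shown to be a difference in effect.

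Pearson's correlation of the group means of log2 CPM describes likeness of pattern, over 11 groups whose libraries share medium and substrate, and carries no test. Dusp4 and Dusp6 were the pair of members most alike over the 11 groups (r = 0.98), followed by Dusp6 and Dusp7 (0.97). Over the 7 groups without PD03 it was Dusp1 and Dusp4 (0.92), followed by Dusp1 and Dusp5 (0.88), and Dusp7 was at -0.35 to 0.32 with all but Dusp9 (0.79). Among 10474 genes with a mean of at least 5 CPM, the genes most like Dusp6 over the 11 groups were Tcf15, Cacng7 and B3gnt7 (r = 0.998 to 0.999). Those most like Dusp4 were Fndc3c1, Dnmt3l and Lmo4 (0.996 to 0.997), and those most like Dusp7 Khdrbs3, Ccnd1 and Zcchc3 (0.992 to 0.995). For Dusp5 they were Plaur, Hmox1 and Inf2 (0.984 to 0.987), for Dusp9 E130309D02Rik, Kcnk1 and Zfp608 (0.978 to 0.992) and for Dusp1 Cldn6, Wipf3 and Rassf1 (0.964 to 0.975). Over the 7 groups without PD03 they were Nfatc2, Cldn6 and Ddit4 for Dusp1, Csf1, Egfr and Apip for Dusp4, Tmem121, Apobr and Dstn for Dusp5, Lrrc8c, Cdc37 and Kif1a for Dusp6, Col18a1, Kdelc2 and Fzd7 for Dusp7 and Esyt3, Nploc4 and Mex3d for Dusp9 (r = 0.959 to 0.992).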

How the data were processed

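RNA sequencing was available for 36 libraries of mouse embryonic stem cells in 11 groups. Per the labels, libraries were made with a NuGen kit. The authors aligned reads to build GRCm38 (mm10) with STAR (2.5.2a per their processing notes) and counted them per gene with HTSeq on Ensembl release 87. The deposited values are raw, unnormalised counts for 49671 genes, with no row that lacks a gene. Neither the strand option of the counting nor the treatment of multi-mapping reads is given in the sources used here. Symbols were found for 49326 identifiers, and coordinates and exon lengths come from GENCODE M21 on the same build.

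The columns carry group names without replicate numbers, so a library number is only a name. The analysis used edgeR 4.0.16 (R 4.3.3). The filter filterByExpr kept 17702 genes with 99.9% of counts, libraries were scaled by TMM (factors 0.963 to 1.05), and 1 quasi-likelihood model with a coefficient per group was fitted over all libraries, since the study's methods name no covariate. There were 24 contrasts, each adjusted by Benjamini-Hochberg over all genes tested at a threshold of 0.05. Intervals are at 95%. The self-test ran on simulated counts. Over 45 replicate pairs, the chi-square per gene was 2.22 to 13.4, above sampling noise.

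The members and gene lists were chosen with earlier results of these data known. Named genes were all 6 members, the 3 genes most like each by correlation of group means (log2 CPM, prior count 2, mean of at least 5 CPM), Spry4 and Etv4, and up to 2 genes per direction and pathway list. Spry1, Dusp2, Dusp8 and Ergic1 were named after their values were seen. Alternatives were RLE scaling, DESeq2 1.42.0, no filter, a fit on the compared groups alone, each library left out, the sample identifier as a term, the 48 h pairs alone for the means (added after seeing the data), and for levels per kb the longest transcript or unscaled totals. Protein sequences were not used here.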

Additional observations from a re-analysis of the deposited data

Results flagged for a closer look

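In the 6 libraries of soft hydrogels in serum + PD03, the highest library of Dusp5, at 13.8 CPM, stood apart from the next at 10.7 CPM, with a gap of 0.742 of the whole range. The gap was past the 95% limit of Dixon's test. No library of that group stood apart by this test for the other 5 genes. Chance alone singles out about 1 in 20 for each gene tested. With 6 genes tested, a single such library is less unusual than that.

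For Dusp6, the mean soft against stiff change was -0.23 without and 0.15 with PD03, a difference of 0.38 on the log2 scale (edgeR adjusted p = 0.0119). The mean without PD03 includes a 24 h pair, while the groups with PD03 were all at 48 h. At matched time the difference was 0.34 and did not pass (adjusted p = 0.0577), nor did the tests within serum (0.27, 0.422) and serum + LIF (0.41, 0.222). The soft against stiff change was 0.29 in serum + LIF + PD03 and 0.02 in serum + PD03, and neither passed.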

How the results depend on the processing

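Of 144 single changes (6 genes in 24 comparisons), 56 passed the threshold, and 54 of these kept their call under RLE scaling, DESeq2, no filter and the fit on the compared groups alone. The exceptions were Dusp1 for LIF on stiff hydrogels, at an adjusted p of 0.0668 in the fit on the compared groups alone, where 1 gene was called in place of 2, and Dusp6 at 48 h against 24 h on stiff hydrogels in DESeq2. The sample identifier as a term had the widest effect. Over its 45 assignments the lowest number of genes called was 0 for soft against stiff in serum, serum + PD03 and serum + LIF + PD03, for both comparisons with plastic and for 48 h against 24 h on soft hydrogels. It was 0 to 3 for the mean without PD03, from 1 for the mean with PD03, and 0 throughout for LIF on stiff hydrogels. The change of Dusp4 at 48 h against 24 h on soft hydrogels reached 0.078 at its highest (adjusted p = 0.912). The difference of the means with and without PD03 was called for 2 genes with no filter or in some assignments, the second being Dusp9, and for 0 over the 48 h pairs only, an alternative chosen after seeing the data (1541 to 955 genes of all for the mean without PD03, and 440 to 315 for the difference). Stiffness by LIF was called for 1 gene with no filter (Dusp4, 0.49, adjusted p = 0.031). Since the fits differ in the genes tested or the terms, the cause of single losses was not tested.

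Without 1 library the number called was 0 to 1 for LIF on stiff hydrogels, 0 to 2 for the difference of the means, and 1 to 3 for soft against stiff at 24 h and in serum + PD03. In all, 11 of the 56 calls were lost without some library and 0 changed sign. Of the 88 changes that did not pass, 41 changed sign under some setting, all at sizes of 0.24 or less, and 4 passed under one: Dusp4 and Dusp9 above, Dusp6 in serum, and Dusp7 at 48 h against 24 h on soft hydrogels. With the longest annotated transcript as length, Dusp1 was at 16.4 CPM per kb without and 12.9 with PD03, and Dusp6 at 27.7 and 3.44. Over the 7 groups without PD03, Dusp1 shared 1 of its 3 most alike genes with those over 11 groups, and each of the other 5 genes 0.

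Over all genes, the identifier lowered the calls from 858 to between 173 and 384 for soft against stiff in serum, from 982 to 276 to 678 in serum + PD03, from 1348 to 246 to 724 in serum + LIF + PD03, and from 138 to 0 to 41 in serum + LIF. It lowered them from 1541 to 340 to 651 for the mean without PD03, from 2620 to 422 to 1099 with PD03, from 2083 and 981 to 126 to 445 and 225 to 431 for soft and stiff against plastic, and from 4315 and 4535 to 345 to 813 and 2219 to 2431 for time on soft and stiff hydrogels. For LIF it took 249 to 109 to 204 on stiff hydrogels and 19 to 7 to 19 on soft with PD03, and for the 4 interactions 141, 189, 15 and 45 to 76 to 124, 130 to 188, 0 to 19 and 0 to 42. With no filter the small counts rose, to 266 for soft against stiff in serum + LIF, 46, 381, 73 and 141 for LIF, and 222, 259, 173 and 189 for the interactions, and DESeq2 gave 231, then 41, 333, 43 and 122, then 347, 230, 72 and 91. The fit on the compared groups alone gave 81 in serum + LIF, 417 for LIF on stiff hydrogels with PD03 (91 otherwise), and 1 and 32 for stiffness by LIF and by time.

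No paired analysis was possible because the columns of the count table carry no replicate numbers. Counting error weighs most on Dusp4 with PD03, whose lowest count was 54.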
